A study of Homo sapiens with 4 samples.

Results

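H1299 cells negative for GFP were compared between the Oct4 reporter and the Nestin reporter, by the pair of arrays named Oct4/GFP (−) and Nestin/GFP (−), which are 2 of the 4 arrays of the study. H1299 cells derive from a human large cell lung carcinoma and lack p53. The cells had been stably transfected with GFP driven by the promoter of Oct4, a pluripotency factor, or of nestin, an intermediate filament protein of neural progenitors, and were grown for 24 h in DMEM with 5% fetal bovine serum. The study sorted cells with high GFP or without GFP, and cells sorted for GFP gave rise to cells without it in culture. The labels do not settle whether the GFP (−) RNA came from cells that had carried the reporter and lost its signal or from cells that never had it, and the sources used here do not give the number of clones behind each line. All genes with a named probe were used: 17397 probes of 30968 have 1 gene symbol, which gives 15207 genes. A level could be compared for 5007 of them, since the others lay too close to background on these arrays.

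Each population was measured on 1 array, so no difference can be checked against a replicate and no p-value is given. Values are fluorescence intensities. Genes that respond together are read here by shared programs. Cells short of amino acids or with stressed endoplasmic reticulum make ATF4, a transcription factor that turns on genes for making amino acids and charging tRNAs, together with stress regulators. Cells short of sterols release SREBP2, which turns on the mevalonate and cholesterol pathway, and cells with unfolded protein in the cytosol use HSF1 to make chaperones.

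The Oct4/GFP (−) array was the dimmest of the 4. The 90th percentile of intensity was 27 on Oct4/GFP (−) and 94 on Nestin/GFP (−), against 54.3 on Oct4/GFP (+) and 112 on Nestin/GFP (+). An array's noise SD was taken from its values below 0, as their root mean square, and a probe over 3 times this SD was called above background. The limits were 13.9 on Oct4/GFP (−) and 20.3 on Nestin/GFP (−). By that limit 19.5% of the probes were above background on Oct4/GFP (−), against 29.1% on Nestin/GFP (−). The arrays correlated between 0.785 and 0.917 in log2 level across genes, and the highest value was that of the Nestin/GFP (−) with the Nestin/GFP (+) array. The Oct4/GFP (−) array correlated at 0.822 with Nestin/GFP (−) and at 0.828 with Oct4/GFP (+).

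Line markers were checked on both arrays. Vimentin (VIM) gave intensities of 140 on Oct4/GFP (−) and 772 on Nestin/GFP (−), CD44 gave 83 and 352, and the glycolytic enzyme ENO1 gave 1731 and 6344, in the same order. CDH1, EPCAM and the lung epithelial factor NKX2-1 were below background on both arrays, as was the leukocyte marker PTPRC. Of 10 immune markers with a probe, 1 could be compared: CD3D, with its brighter probe at 16 on Oct4/GFP (−) and 167 on Nestin/GFP (−), while CD3E, CD4 and CD8A were below background on both arrays. The surfactant gene SFTPB, listed as a gene this line should lack, was above background on both arrays, with 56 and 17 on its probes on Oct4/GFP (−) and 128 and 41 on Nestin/GFP (−).

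On deposited intensities the median gene above background on both arrays was 3.24-fold lower on Oct4/GFP (−). Quantile normalization over all 4 arrays was therefore used, with a floor for values under the limit, before taking log2. The floor of an array is its lowest normalized intensity over the limit. By this scale 1063 genes were more than 2-fold higher and 632 more than 2-fold lower in Oct4/GFP (−) cells, so that 62.7% of the genes past 2-fold were higher. This split follows the scaling. It was 19.9% with each array centred on its median, 68.1% with each centred on the probes above background on both arrays, 40.4% after a loess of the difference on the level and 0.308% on the values as deposited. Every difference given from here on is therefore relative to the median of the 3363 genes measured on both arrays, which lay at a log2 difference of 0.15 after quantile normalization.

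Relative to that median gene, 427 of the 3363 measured genes were more than 2-fold higher in Oct4/GFP (−) cells (12.7%) and 431 more than 2-fold lower (12.8%). With the genes above background on 1 array only, 822 of 5007 were higher (16.4%) and 826 lower (16.5%). For a gene seen on 1 array only a lower limit of the fold is given ("at least"), called its bound. The floor was 30.5 on Oct4/GFP (−) and 16.25 on Nestin/GFP (−), so any gene above background on Oct4/GFP (−) alone starts at a bound of 1.88-fold before the median gene is subtracted, and counts below are of measured genes unless bounds are named. Of 607 genes seen on Oct4/GFP (−) only, 395 had a bound past 2-fold (65.1%), and of 1037 seen on Nestin/GFP (−) only, 395 (38.1%). In 233 measured genes a probe that was above background on 1 array only enters the mean at the floor. The fold is a lower limit where the floored value lies on the array with the lower gene level. Otherwise it is not a lower limit. For 204 genes with more than 1 probe above background on both arrays, the log2 differences of probes of one gene had an SD of 0.74. Of 43 genes whose first probe was past 2-fold, the last probe had the same direction in 25 and was past 2-fold the same way in 8. The correlation between probes of one gene in their difference was 0.12 across these genes. A second probe thus often did not repeat the first, and most genes named below rest on 1 probe. Of 90 genes past 2-fold whose values were followed over the other settings, 36 fell under 2-fold with an offset of 50 in place of the limit, which shrinks differences of dim genes, and 15 under at least 1 other setting. They are marked where they are named.

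**Figure D1:**
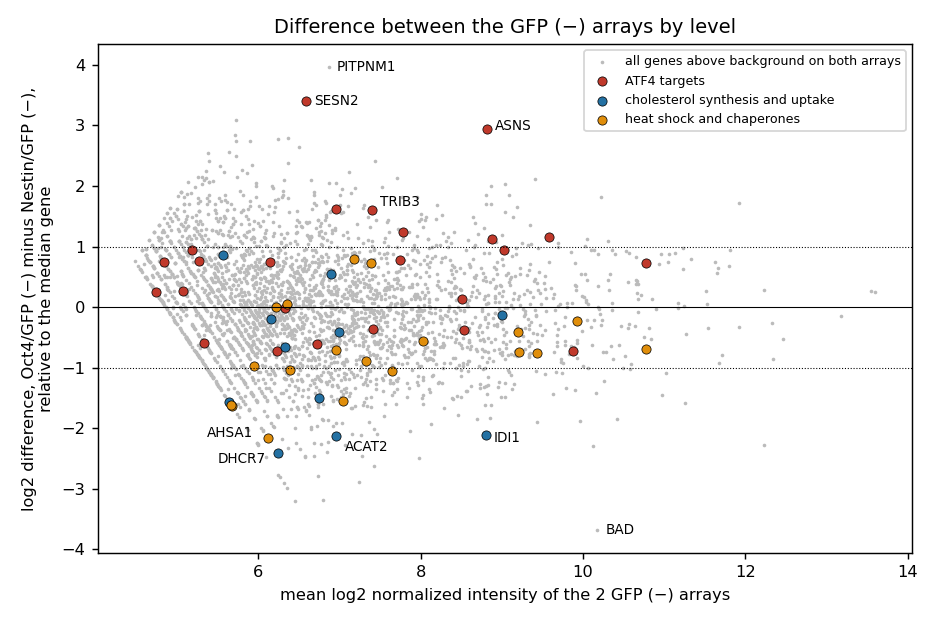
Log2 difference, Oct4/GFP (−) minus Nestin/GFP (−), relative to the median gene, against the mean log2 normalized intensity of both arrays for the 3363 genes measured on both (grey), with ATF4 targets in red, cholesterol genes in blue and chaperones in orange; dotted lines mark 2-fold. SESN2 and ASNS stand at 3.40 and 2.94, whereas DHCR7, ACAT2 and IDI1 lie below -2.

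Among genes measured on both arrays, PITPNM1, SESN2 and ASNS were the 3 above the median level that were more than 2-fold higher under each of 5 scalings, with the values as deposited among them. By the same rule 173 genes were lower, on an array that was dimmer throughout. PITPNM1, a phosphatidylinositol transfer protein, gave intensities of 150 on Oct4/GFP (−) and 37 on Nestin/GFP (−), a 15.6-fold difference relative to the median gene. SESN2, sestrin 2, a stress-induced inhibitor of the growth kinase mTORC1, gave 103 on Oct4/GFP (−) and 37 on Nestin/GFP (−), or 10.5-fold. ASNS, asparagine synthetase, gave 420 on Oct4/GFP (−) and 199 on Nestin/GFP (−), or 7.69-fold. All 3 were brighter on the Oct4/GFP (−) array before any scaling, although the median gene was dimmer there. Each rests on 1 probe.

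SESN2 and ASNS are known targets of ATF4, and the other known targets were then listed, after these values had been seen. Of 53 listed targets, 46 have a probe and 24 were measured, of which 7 were more than 2-fold higher and 0 lower in Oct4/GFP (−) cells, beside 12.7% and 12.8% of all measured genes. Because the list was made after the values of its leading members were known, this count is a description only. It does not hold every enzyme that charges tRNAs, and KARS1, lower by 3.05-fold, is not in it. Of 7 measured aminoacyl-tRNA synthetases, in the ATF4 list or not, 2 were more than 2-fold lower and 0 higher, beside the same shares. Their median was -0.36, or -0.12 after loess. TRIB3, a pseudokinase that restrains AKT, gave 97 on Oct4/GFP (−) and 117 on Nestin/GFP (−), or 3.05-fold higher relative to the median gene. DDIT4, another inhibitor of mTORC1, gave 73 and 88 in that order, or 3.08-fold. DDIT3, the stress factor CHOP, gave 111 on Oct4/GFP (−) and 173 on Nestin/GFP (−), or 2.36-fold. For these 3 the Oct4/GFP (−) array was slightly dimmer before scaling, and they stood out because most genes were dimmer by more.

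The remaining members past 2-fold were PSAT1 and SHMT2, both close to the threshold. PSAT1, the phosphoserine aminotransferase, gave 231 on Oct4/GFP (−) and 385 on Nestin/GFP (−), or 2.18-fold higher. SHMT2, the mitochondrial serine hydroxymethyltransferase, gave 373 and 604 on its measured probe, or 2.24-fold. Centred on the array medians their log2 differences were 0.96 for PSAT1 and 1.00 for SHMT2, under the threshold. With the offset of 50 that of SHMT2 was 0.50. PHGDH, the enzyme before PSAT1 in serine synthesis, gave 8 on Oct4/GFP (−), below background, and 25 on Nestin/GFP (−), and has no fold. EIF4EBP1, a translation repressor, lay just under the threshold at 239 on Oct4/GFP (−) and 454 on Nestin/GFP (−), or 1.92-fold. The 24 measured targets had a median log2 difference of 0.74 relative to all genes, with 17 above the median gene, and it was 0.34 after loess, which takes out the part of the difference that follows the level. Over 11 settings it ran between 0.08 and 0.85. The ATF4 gene itself lay lower in Oct4/GFP (−) cells, with 44 on Oct4/GFP (−) and 267 on Nestin/GFP (−). After quantile normalization these were 124 and 210. The targets did not all lie the same way. AARS1, alanyl-tRNA synthetase, was below background on Oct4/GFP (−) at 13, against 93 on Nestin/GFP (−), and was at least 2.58-fold lower. ATF3, a transcription factor of the same response, gave 11 on Oct4/GFP (−), below background, and 85 on Nestin/GFP (−), and was at least 2.34-fold lower. Of 14 measured genes of the unfolded protein response, 5 were more than 2-fold higher and 0 lower, beside 12.7% and 12.8% of all measured genes. These are SESN2, ASNS, TRIB3, DDIT4 and DDIT3, already counted as ATF4 targets. The group lay at the median gene (median 0.06, with 7 above and 7 below it). Its member SDF2L1 was at least 3.16-fold lower.

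ATF4 binds a composite site whose letters are TGATGNAA, and the RefSeq promoter windows (250 bases before to 50 after the outermost listed start of each gene, build GRCh38.p14) were searched for it on both strands. It was found in 1003 of 27305 windows (3.67%), and in 5 of the 21 compared ATF4 targets that have a window: ASNS, AARS1, ATF3, IARS1 and NARS1. SESN2, TRIB3, DDIT3, DDIT4 and PSAT1 have no match in these letters in the window. The windows of ASNS, of IARS1, which was 0.73 higher on the log2 scale, and of AARS1, which was lower, are shown to set the gene that moved most beside others with the same letters. The capitals mark the site, each sequence runs 5′ to 3′ on the gene's strand, and in IARS1 and AARS1 the site lies on the opposite strand.
ASNS, chr7:97872443-97872502, minus strand: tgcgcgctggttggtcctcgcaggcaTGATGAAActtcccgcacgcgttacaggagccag
IARS1, chr9:92293698-92293736, minus strand: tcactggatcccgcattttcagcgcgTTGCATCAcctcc
AARS1, chr16:70289660-70289719, minus strand: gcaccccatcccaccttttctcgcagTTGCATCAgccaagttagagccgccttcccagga
A match describes the letters only. The 3 genes share the site and do not share a direction.

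**Figure D2:**
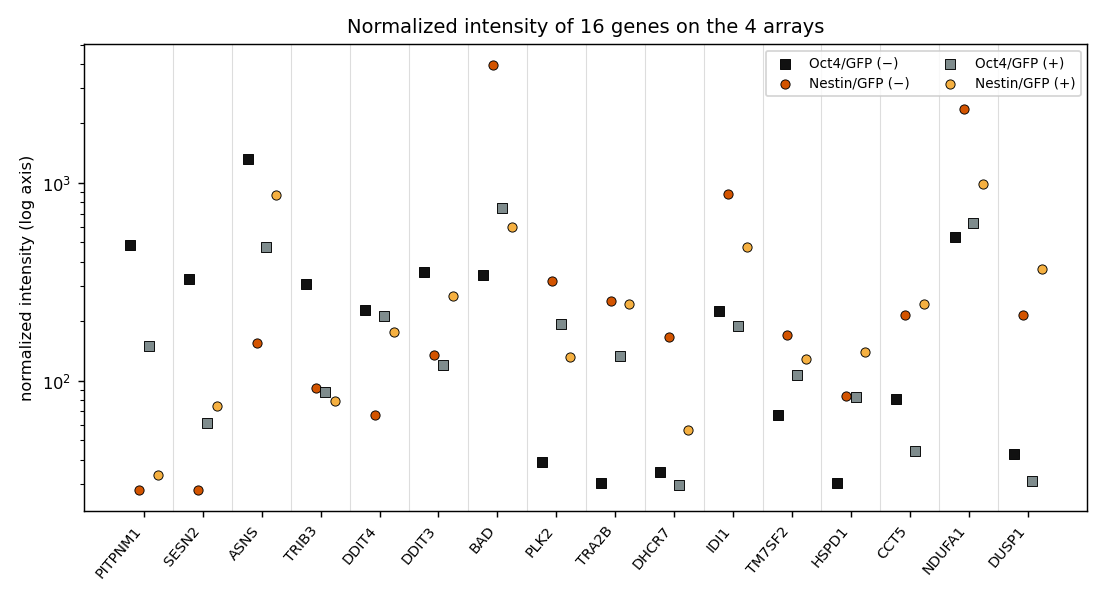
Quantile normalized intensity (log axis) of 16 genes with 1 probe each on Oct4/GFP (−) (black squares), Nestin/GFP (−) (dark orange circles), Oct4/GFP (+) (grey squares) and Nestin/GFP (+) (light orange circles), 1 point per array. SESN2, PITPNM1 and ASNS are highest on Oct4/GFP (−), and PLK2, TRA2B and HSPD1 are lowest there.

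Other genes were more than 2-fold higher relative to the median gene under each normalization, but not on the values as deposited. By a rule added after the data were seen, which takes differences relative to the median gene, 118 genes were higher and 156 lower under all 4 normalizations used. PTHLH, parathyroid hormone-related protein, a hormone that many lung carcinomas secrete, gave 131 on Oct4/GFP (−) and 93 on Nestin/GFP (−) with the measured probe, or 5.33-fold higher. ZFP36, tristetraprolin, which promotes decay of AU-rich mRNAs, gave 355 on Oct4/GFP (−) and 315 on Nestin/GFP (−), or 4.10-fold. HNRNPUL1, an RNA-binding protein, gave 466 and 388 in that order, or 4.34-fold. NADK, the kinase that makes NADP, gave 80 on Oct4/GFP (−) and 72 on Nestin/GFP (−), or 4.15-fold. HS3ST3A1, a heparan sulfate sulfotransferase, was 4.40-fold higher, with 143 on Oct4/GFP (−) and 121 on Nestin/GFP (−). These genes had nearly equal deposited intensities on both arrays. FRYL, ZNF227, AP4B1 and JADE2 were of the same kind, between 4.14-fold and 6.28-fold higher. With the offset of 50 the log2 differences of PTHLH, FRYL and JADE2 were 0.90, 0.77 and 0.80, under 2-fold, and each has a second probe below background on both GFP (−) arrays.

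Among genes seen on 1 array only, PUSL1, a pseudouridine synthase-like protein, gave 370 on Oct4/GFP (−) and 0 on Nestin/GFP (−) and was at least 65.6-fold higher. It was 18 on Oct4/GFP (+) and 0 on Nestin/GFP (+), so this value stood apart from all 3 other arrays. BTBD3 gave 77 on Oct4/GFP (−) and 20 on Nestin/GFP (−), just under the limit there, and was at least 13.4-fold higher. TOR4A, ODF4, ZMYND8 and the serotonin receptor HTR7 were higher by bounds of at least 8.39-fold, the largest being 10.3-fold for TOR4A. In the other direction GDI2, a regulator of Rab GTPases, gave 11 on Oct4/GFP (−) and 486 on Nestin/GFP (−), at least 13.8-fold lower. The Golgi protein GORASP2 gave 10 and 287, and was at least 8.18-fold lower. RACGAP1 and TACC3, which act at the mitotic spindle, were at least 7.12-fold and 6.86-fold lower, and LRP5L and TRNAU1AP at least 8.71-fold and 6.64-fold.

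BAD was the measured gene furthest towards the Nestin/GFP (−) cells. It encodes a BH3-only protein that promotes apoptosis, and it gave 107 on Oct4/GFP (−) and 4927 on Nestin/GFP (−), a 12.8-fold lower level relative to the median gene. The GFP (+) arrays gave 559 on Oct4/GFP (+) and 1050 on Nestin/GFP (+), so the Nestin/GFP (−) value was the highest of the 4. PLK2, a polo-like kinase, gave 16 on Oct4/GFP (−) and 398 on Nestin/GFP (−), or 9.08-fold lower. TRA2B, a splicing activator, gave 14 and 323, or 9.17-fold lower. Both lay close to the limit of 13.9 on Oct4/GFP (−), where the floor compresses a difference. FSTL1, a secreted BMP-binding glycoprotein, gave 22 on Oct4/GFP (−) and 496 on Nestin/GFP (−), or 7.36-fold lower. TUBB2B, a neuronal beta-tubulin, was 6.93-fold lower, and ANXA3, a calcium-dependent membrane-binding protein, 6.19-fold. DROSHA, the nuclease that starts miRNA processing, gave 20 on Oct4/GFP (−) and 319 on Nestin/GFP (−), or 5.22-fold lower. VPS29, a retromer subunit, MTCH1, a mitochondrial carrier homolog, HNRNPAB, an RNA-binding protein, and PDRG1 had log2 differences between -2.49 and -2.28. PDRG1 was among the brightest of them, with 732 on Oct4/GFP (−) and 11355 on Nestin/GFP (−).

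Cholesterol synthesis genes lay lower in Oct4/GFP (−) cells. Of 25 with a probe, 11 were measured, with 5 more than 2-fold lower and 0 higher, beside 12.8% and 12.7% of all measured genes. Of 4 seen on Nestin/GFP (−) only, 3 were lower by a bound, beside 38.1% of all such genes. IDI1, isopentenyl diphosphate isomerase, gave 72 on Oct4/GFP (−) and 1112 on Nestin/GFP (−), or 4.31-fold lower. DHCR7, which makes cholesterol in the last step of the pathway, gave 15 on Oct4/GFP (−) and 212 on Nestin/GFP (−), or 5.33-fold lower. ACAT2, the cytosolic thiolase at the head of the pathway, gave 45 and 473 on its brighter probe, or at least 4.39-fold lower over both probes, since the dimmer probe was below background on Oct4/GFP (−). CYP51A1 and TM7SF2, which act on successive sterol intermediates, were 2.97-fold and 2.82-fold lower, but under 2-fold with the offset of 50 (log2 differences of -0.42 and -0.92). SQLE, squalene epoxidase, gave 6 on Oct4/GFP (−), below background, and 178 on Nestin/GFP (−), at least 5.08-fold lower, and SC5D was at least 3.89-fold lower. Members from the first step to the last were thus among those past 2-fold, but other members were not. In normalized intensity MVD gave 519 on Oct4/GFP (−) and 510 on Nestin/GFP (−). NSDHL gave 70 and 72.5 and MVK 67 and 95.75, in the same order. The SREBP regulator INSIG1, itself a known target of SREBP, was not past 2-fold, with 25 on Oct4/GFP (−) and 44 on Nestin/GFP (−), or 1.81-fold higher.

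The median of the 11 measured cholesterol genes was -0.66 relative to all genes and -0.45 after loess. Over 11 settings it ran between -1.06 and 0.13, with 1 setting above 0. For the 10 members above background on all 4 arrays the median was -0.80 between the GFP (−) arrays and -0.15 between the GFP (+) arrays. The sterol regulatory element, searched as TCACNCCAC on both strands, was in 308 of 27305 promoter windows (1.13%) and in 0 of the 12 compared cholesterol genes with a window.

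Chaperone genes also lay lower. Of 31 with a probe, 19 were measured, with 6 more than 2-fold lower and 0 higher, beside 12.8% and 12.7% of all measured genes. Of 6 seen on Nestin/GFP (−) only, 5 were lower by a bound, beside 38.1% of all such genes. The ring-shaped chaperonin that folds actin and tubulin had 5 measured subunits, all below the median gene, with a median of -0.90 and 2 past 2-fold. CCT5 gave 30 on Oct4/GFP (−) and 273 on Nestin/GFP (−), or 2.94-fold lower, and CCT2 gave 84 and 876 on its brighter probe, or 2.07-fold over both probes, a difference under 2-fold after loess (-0.82). TCP1, its founding subunit, gave 8 on Oct4/GFP (−), below background, and 105 on Nestin/GFP (−), at least 2.97-fold lower. The mitochondrial chaperonin pair was low as well. HSPD1 gave 14 on Oct4/GFP (−) and 108 on Nestin/GFP (−), or 3.06-fold lower, and its partner HSPE1 gave 11, below background, and 133, at least 3.82-fold lower. AHSA1, an activator of HSP90, gave 15 on Oct4/GFP (−) and 177 on Nestin/GFP (−), or 4.46-fold lower, and its second probe was below background with 6 on each array. With the offset of 50 the log2 differences of AHSA1 and HSPD1 were -0.51 and -0.74, under 2-fold. HSPH1, a nucleotide exchange factor of HSP70, was at least 3.10-fold lower, with 14 and 1 on its probes on Oct4/GFP (−) and 163 and 75 on Nestin/GFP (−). PPIA, the cyclophilin that isomerizes prolines, was 2.07-fold lower and under 2-fold after loess (-0.83).

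The HSP70, HSP90, HSP60 and small heat shock proteins as a whole were closer to all genes, with a median of -0.24 over 7 measured members, 2 of them past 2-fold. Over the 19 measured chaperones the median was -0.74 relative to all genes and -0.54 after loess, and it was below 0 in all 11 settings (-0.85 to -0.49). A single heat shock element was searched as GAANNTTC, which reads the same on both strands. It was in 1871 of 27305 windows (6.85%) and in 4 of the 23 compared chaperone genes with a window, namely DNAJB6, HSPA8, HSPB1 and TCP1. The site of TCP1, the only 1 of these 4 with a bound past 2-fold, is shown beside that of HSPB1, which was 0.69 lower on the log2 scale, with the element in capitals and 5′ to 3′ on the gene's strand.
TCP1, chr6:159789800-159789852, minus strand: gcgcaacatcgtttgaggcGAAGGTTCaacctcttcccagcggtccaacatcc
HSPB1, chr7:76302465-76302524, plus strand: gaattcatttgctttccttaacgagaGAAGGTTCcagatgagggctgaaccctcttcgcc
HSPD1, CCT5 and AHSA1, which were lower by more than 2-fold, have no match in the window of their outermost start.

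**Figure D3:**
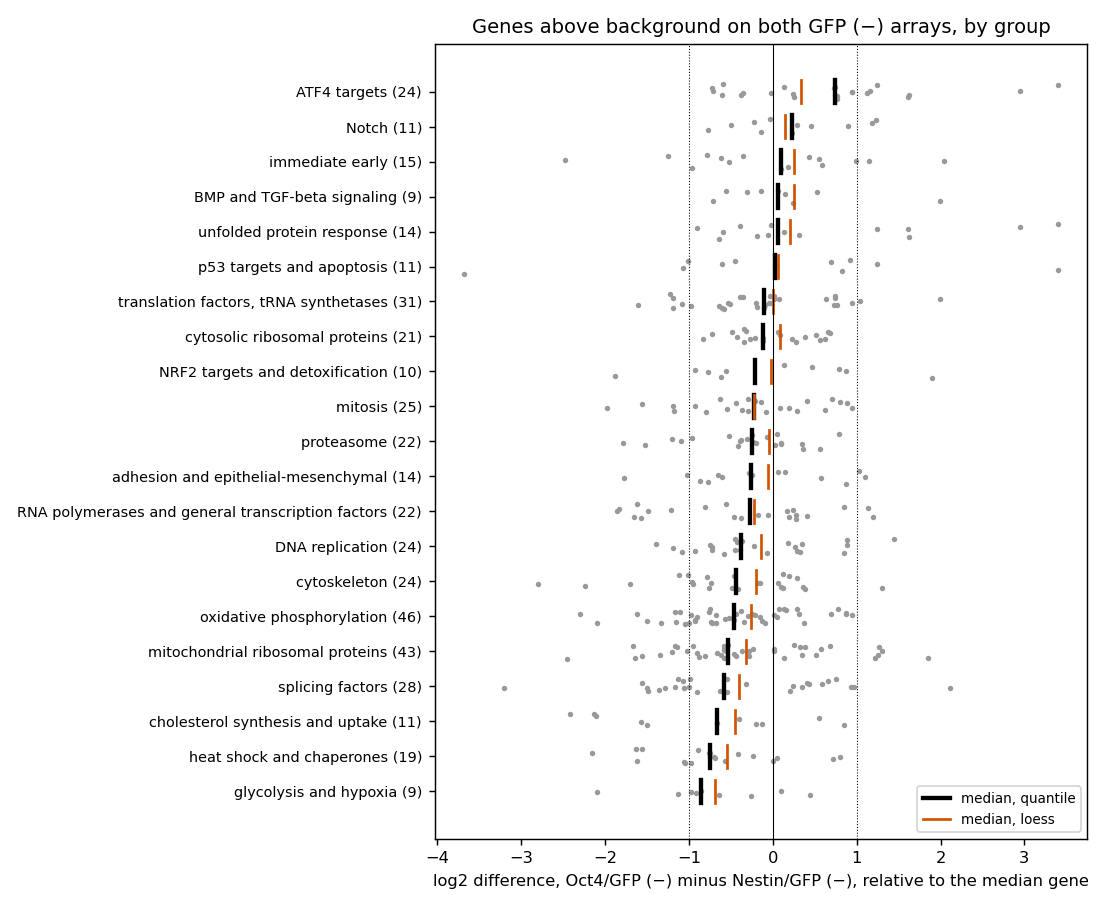
Log2 difference, Oct4/GFP (−) minus Nestin/GFP (−), relative to the median gene, for each gene measured on both arrays (points) in the 21 listed groups with at least 9 such genes, with the group median after quantile normalization (black) and after loess (orange); the number of genes is in brackets. By the median after quantile normalization the ATF4 targets lie highest (0.74, or 0.34 after loess) and glycolysis and hypoxia lowest (-0.86, or -0.69 after loess), with the chaperones next (-0.74, or -0.54 after loess). The ATF4 list was made after the values of SESN2 and ASNS had been seen, so its rank is a description only. Its median ran between 0.08 and 0.85 over the settings.

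Genes of the respiratory chain lay lower, most of all complex I, the NADH dehydrogenase. Complex I had 22 measured genes with a median of -0.62. Of these, 8 were more than 2-fold lower and 0 higher, beside 12.8% and 12.7% of all measured genes. NDUFA1, an accessory subunit, gave 162 on Oct4/GFP (−) and 2907 on Nestin/GFP (−), or 4.92-fold lower. NDUFB1, another, gave 27 and 355, or 4.27-fold lower, and NDUFV1, a core subunit of the NADH-oxidizing module, gave 33 and 260, or 2.52-fold lower (-0.86 in log2 by the offset setting). Of 24 measured genes of complexes II to V and cytochrome c, 1 was past 2-fold: ATP5F1C, the gamma subunit of ATP synthase, which gave 85 on Oct4/GFP (−) and 908 on Nestin/GFP (−) and was 3.06-fold lower. Their median was -0.45. After loess the medians were -0.39 for complex I and -0.22 for the other complexes. All 46 measured genes together had 9 lower and 0 higher, and their median was below 0 in all 11 settings (-0.63 to -0.19). Bounds went both ways. The 2 genes seen on Oct4/GFP (−) only, NDUFA5 and NDUFB5 of complex I, were both higher past 2-fold, beside 65.1% of all such genes. Of 4 seen on Nestin/GFP (−) only, 1 was lower by a bound, beside 38.1%.

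Glycolysis and hypoxia genes had fewer measured members and a lower median still. The 9 measured had a median of -0.86, or -0.69 after loess, and it was at or below 0 in all 11 settings. Of them 2 were lower and 0 higher past 2-fold, beside 12.8% and 12.7% of all measured genes. Of 3 seen on Nestin/GFP (−) only, 2 were lower by a bound, beside 38.1% of all such genes. The 2 seen on Oct4/GFP (−) only were both higher by a bound, beside 65.1% of all such genes. The largest difference of the group was such a bound: ANGPTL4 gave 40 on Oct4/GFP (−) and 16 on Nestin/GFP (−), below background, and was at least 6.21-fold higher. GPI, glucose-6-phosphate isomerase, gave 1396 on Oct4/GFP (−) and 7967 on Nestin/GFP (−), a log2 difference of -0.86, and LDHA, lactate dehydrogenase, gave 31 and 192, or -0.97. HK1, hexokinase 1, was 2.19-fold lower, with 66 on Oct4/GFP (−) and 506 on Nestin/GFP (−), but under 2-fold after loess (-0.86). ENO2, the neuronal enolase, lay the other way at 0.44.

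Mitochondrial ribosomal proteins were spread more widely. The 43 measured had a median of -0.53, or -0.32 after loess. Of them 9 were lower and 5 higher, beside 12.8% and 12.7% of all measured genes. MRPL11 gave 26 on Oct4/GFP (−) and 440 on Nestin/GFP (−), or 5.47-fold lower, and MRPL17 and MRPL44 were 3.13-fold and 3.16-fold lower. MRPS5 was at least 6.09-fold lower, with 2 on Oct4/GFP (−) and 214 on Nestin/GFP (−). Against these, MRPS24 gave 277 on Oct4/GFP (−) and 284 on Nestin/GFP (−), or 3.61-fold higher. The cytosolic ribosomal proteins stayed with the median gene: of 21 measured, 0 were past 2-fold in either direction, and their median was -0.11, or 0.08 after loess. RPL8, for example, gave 1690 on Oct4/GFP (−) and 3350 on Nestin/GFP (−), a log2 difference of 0.68. The 1 cytosolic ribosomal gene seen on Oct4/GFP (−) only, RPL34, was at least 2.57-fold higher. Of all such genes 65.1% had a bound past 2-fold.

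Splicing factors had 10 lower and 1 higher of 28 measured, beside 12.8% and 12.7% of all measured genes. Their median was -0.58, or -0.40 after loess. Beside TRA2B, the SR protein SRSF3 gave 50 on Oct4/GFP (−) and 462 on Nestin/GFP (−) on its measured probe and was 2.80-fold lower, and SRSF9 was 2.25-fold lower. HNRNPA2B1 gave 68 and 670 on its measured probe, or 2.84-fold lower, and SNRNP70, a protein of the U1 particle, gave 48 and 400, or 2.56-fold lower. The polypyrimidine tract-binding protein PTBP1 was 2.43-fold lower. With the offset of 50 SRSF3, SRSF9, HNRNPA2B1, SNRNP70 and PTBP1 lay between -0.97 and -0.51 on the log2 scale, under 2-fold. HNRNPUL1, already named, was the higher member. Of 24 measured cytoskeletal genes 5 were lower and 1 higher, beside the same shares of all measured genes. All 6 cytoskeletal genes seen on Nestin/GFP (−) only were lower by a bound, beside 38.1% of all such genes. ARPC2, a subunit of the actin-nucleating ARP2/3 complex, gave 19 on Oct4/GFP (−) and 270 on Nestin/GFP (−) on its measured probe, or 4.71-fold lower (-0.61 in log2 by the offset setting). The proteasome had 4 lower and 0 higher of 22 measured, beside the same shares of all measured genes. Its core subunit PSMA7 was 3.45-fold lower, but the group median of -0.24 was -0.04 after loess.

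The next groups had shares past 2-fold nearer to those of all measured genes (12.8% lower and 12.7% higher). Of 25 measured mitosis genes 4 were lower and 0 higher, and of 24 measured DNA replication genes 3 were lower and 1 higher. The 2 mitosis genes seen on Oct4/GFP (−) only were both higher by a bound, beside 65.1% of all such genes. The 2 seen on Nestin/GFP (−) only were both lower, beside 38.1% of all such genes. Among them NUF2 was at least 4.34-fold higher and TPX2 at least 3.65-fold lower. BIRC5, survivin, gave 42 on Oct4/GFP (−) and 356 on Nestin/GFP (−) on its brighter probe, or 2.94-fold lower over both probes (-0.97 in log2 by the offset setting). TK1, thymidine kinase, was at least 2.63-fold lower over both probes, but its brighter probe alone gave -0.31. CDT1, which licenses replication origins, gave 95 on Oct4/GFP (−) and 128 on Nestin/GFP (−), or 2.72-fold higher. Translation factors and aminoacyl-tRNA synthetases had 5 lower and 2 higher of 31 measured. The elongation factor EEF1B2 gave 310 on Oct4/GFP (−) and 282 on Nestin/GFP (−), or 3.98-fold higher, whereas KARS1, lysyl-tRNA synthetase, gave 89 and 957, or 3.05-fold lower. Immediate early genes went both ways, with 2 higher and 2 lower of 15. DUSP1, a phosphatase that turns off MAP kinases, gave 17 on Oct4/GFP (−) and 272 on Nestin/GFP (−), or 5.57-fold lower.

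The genes on which the study turned were mostly dim in these cells. Of 21 with a probe, 7 were measured, 1 was higher and 0 were lower, beside 12.7% and 12.8% of all measured genes. Nestin itself (NES) gave 2 on Oct4/GFP (−) and 20 on Nestin/GFP (−), below background on both, and SOX2 and NANOG were below background as well. The BMP receptor BMPR1A gave 63 on Oct4/GFP (−) and 202 on Nestin/GFP (−) on its measured probe, a log2 difference of 0.15. Among the ID genes, inhibitors of DNA binding that BMP signaling turns on, ID1 gave 65 and 339, or -0.56, and ID3 gave 71 and 241 on its measured probe, or 0.06. Neither differed by more than the spread between probes. SMAD1, which carries the BMP signal to the nucleus, gave 29 on Oct4/GFP (−) and 23 on Nestin/GFP (−), both near the limits, and was 3.97-fold higher, with values between 0.53 and 2.03 on the log2 scale over 9 settings. PANK3 gave 13 on Oct4/GFP (−), below background, and 95 on Nestin/GFP (−), at least 2.63-fold lower.

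The GFP (+) arrays are the only other measurement of the same pair of lines, and they share no array with the GFP (−) pair. Of 2813 genes above background on all 4 arrays, 356 were more than 2-fold higher (12.7%) and 341 lower (12.1%) in Oct4/GFP (−) against Nestin/GFP (−) cells. In Oct4/GFP (+) against Nestin/GFP (+) cells 302 were higher (10.7%) and 396 lower (14.1%). Of the 356 higher genes, 96 were also higher in the GFP (+) cells (27.0%) and 24 were lower there. Of the 341 lower genes, 102 were also lower (29.9%) and 7 were higher. The shared genes made up 31.8% of those higher and 25.8% of those lower in the GFP (+) cells. The differences correlated at 0.30 across genes, which are not independent replicates, and all 4 arrays share probes.

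Some of the genes named above kept their direction in the GFP (+) cells and others did not. PITPNM1 gave 100 on Oct4/GFP (+) and 48 on Nestin/GFP (+) and was past 2-fold higher there too, HNRNPUL1 had a log2 difference of 2.87, and DUSP1 one of -3.73, with 26 on Oct4/GFP (+) and 635 on Nestin/GFP (+). SESN2 gave 47 on Oct4/GFP (+) and 116 on Nestin/GFP (+), a log2 difference of -0.44. ASNS gave 331 on Oct4/GFP (+) and 1467 on Nestin/GFP (+), or -1.05. The 21 ATF4 targets above background on all 4 arrays had a median of 0.79 between the GFP (−) arrays and -0.30 between the GFP (+) arrays. For the 19 chaperones the medians were -0.69 in GFP (−) and -0.85 in GFP (+) cells, and for 42 respiratory chain genes -0.38 and -0.53. The 36 mitochondrial ribosomal proteins had -0.45 in GFP (−) and 0.13 in GFP (+) cells. None of these differences between the pairs was tested, since each rests on single arrays.

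**Figure D4:**
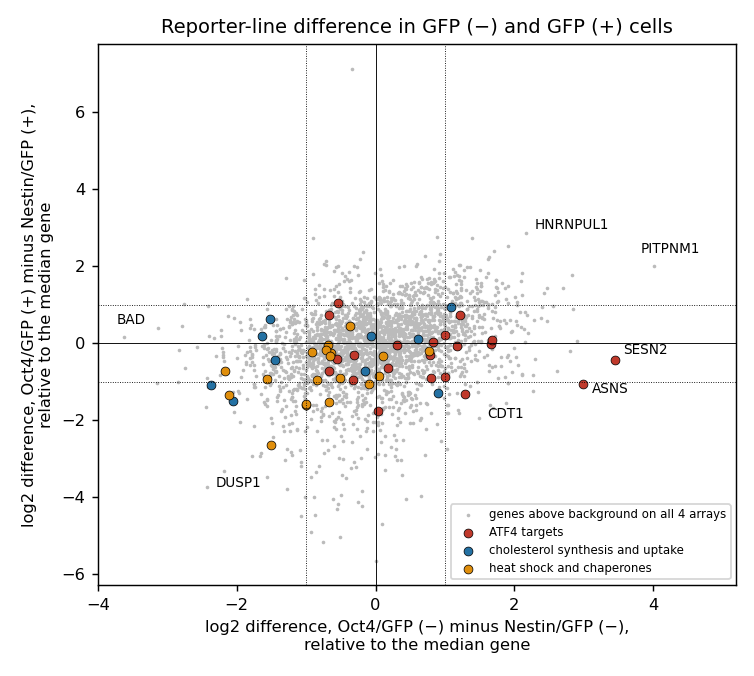
Log2 difference between the Oct4 and Nestin lines, relative to the median gene, in GFP (−) cells (x axis) and in GFP (+) cells (y axis) for 2813 genes that were above background on each of the 4 arrays, with ATF4 targets in red, cholesterol genes in blue and chaperones in orange. SESN2 and ASNS lie far right and below 0, BAD far left near 0, and DUSP1 low on both axes.

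The level of a gene was related to its difference. In the dimmest 842 measured genes the median was 0.39 relative to all genes, and it was -0.12, -0.11 and -0.10 in the next 840, the next 840 and the brightest 841. Groups of brighter genes thus start slightly below 0, which is why medians after loess are given beside them. On normalized values 76 genes were more than 2-fold above and 72 more than 2-fold below all 3 other arrays on Oct4/GFP (−), against 36 above and 26 below on Nestin/GFP (−). On Oct4/GFP (+) 27 were above and 148 below, and on Nestin/GFP (+) 21 and 41, so both Oct4 arrays stood apart at more genes than either Nestin array. The low signal of the Oct4/GFP (−) array, its 1 hybridization and the reporter line cannot be told apart.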

How the data were processed

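RNA of 4 H1299 populations was labelled with Cy3 and hybridized to 1 Phalanx Human OneArray each. The authors deposited linear intensity values in whole numbers, with a background subtracted; the sources used here do not name the software, scaling or filters behind them. Symbols came from the platform annotation (1 symbol for 17397 probes, none for 13571), and 15169 of 15240 are current or match a synonym in RefSeq. Intensities were quantile normalized over 4 arrays, with a background limit of 3 noise SD, a floor and log2. Probes of a gene above the limit on at least 1 GFP (−) array were averaged. No test was possible with 1 array per group, and precision is limited by the number of arrays. Named genes were the largest differences past 2-fold under 5 scalings (3 higher, 14 lower), the 6 largest bounds each way, the study's own genes and up to 4 leading members per list. After the data were seen, 12 genes each way under 4 normalizations, the ATF4 list and the reference to the median gene were added, and 25 genes of the lists outside this rule are named after their values were seen. Members and lists were chosen with earlier results of these data known. The steps were tested on simulated data, with changes placed in brighter genes only. The simulated noise was smaller than the spread between probes found here, so calls of dim genes on 1 probe were not covered. Scripts used matplotlib 3.10.9, statsmodels 0.14.6, scipy 1.17.1, pandas 2.3.3 and numpy 2.4.6 under Python 3.11.15.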

Additional observations from a re-analysis of the deposited data

Results flagged for a closer look

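ASNS stood out because the line difference ran in opposite directions in the GFP (−) and GFP (+) cells, past 2-fold in both: the log2 difference relative to the median gene was 2.94 in Oct4/GFP (−) against Nestin/GFP (−) cells and -1.05 in Oct4/GFP (+) against Nestin/GFP (+) cells. CDT1 did the same, with 1.44 in GFP (−) and -1.95 in GFP (+) cells. Both rest on single arrays, and the difference between the pairs was not tested.

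Probes without a gene symbol were left out of the comparisons, and their share past 2-fold was near that of named probes. Of 1337 such probes above background on both GFP (−) arrays, 382 were past 2-fold relative to the median gene (28.6%), 239 higher (17.9%) and 143 lower (10.7%) in Oct4/GFP (−) cells. Of 3552 named probes 942 were past 2-fold (26.5%), 461 higher and 481 lower.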

How the results depend on the processing

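The number of genes past 2-fold, 1063 higher and 632 lower in Oct4/GFP (−) cells, moved by more than 1.5 times in these settings. Centring on the array medians gave 377 higher and 1514 lower, and the values as deposited gave 13 higher and 4209 lower. After loess 450 were higher. A limit of 2 noise SD gave 1130 lower, one of 5 noise SD gave 565 higher and 244 lower, and one of 10 noise SD 252 and 85. An offset of 50 without a limit gave 271 higher and 281 lower. Only genes above background on both arrays gave 562 and 330, and thresholds of 1.5-fold and 4-fold gave 1654 and 1288, and 172 and 70. The causes were not tested beyond what each setting does by construction. Of the named gene differences under other settings, 1083 moved by less than the spread between probes and 45 by more. List medians moved too. That of the cholesterol genes ran between -1.06 and 0.13, and that of glycolysis and hypoxia between -0.91 and -0.004. Most genes were within a few times the background limit on Oct4/GFP (−), so differences of dim genes depend on the floor. No paired analysis was possible because each population has 1 array and all carry the same replicate number.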

Other observations

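Other gene groups held few measured members. Of 5 interferon response genes measured, 2 were more than 2-fold lower and 1 higher in Oct4/GFP (−) cells, beside 12.8% and 12.7% of all measured genes. B2M, the light chain of MHC class I, gave 71 on Oct4/GFP (−) and 693 on Nestin/GFP (−), or 2.78-fold lower relative to the median gene, and IFITM3, an antiviral membrane protein, was 2.91-fold lower (-0.77 in log2 by the setting with an offset). OAS1, the RNA sensor, gave 40 on Oct4/GFP (−) and 37 on Nestin/GFP (−), or 3.59-fold higher. The 1 interferon response gene seen on Oct4/GFP (−) only, OASL, was at least 5.68-fold higher, beside 65.1% of all such genes past 2-fold. The 1 seen on Nestin/GFP (−) only had no bound past 2-fold. GPX4, which protects membranes from lipid peroxides, gave 170 on Oct4/GFP (−) and 2228 on Nestin/GFP (−), or 3.67-fold lower. ADM, the hypoxia-induced peptide adrenomedullin, gave 33 and 440, or 4.25-fold lower.

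Some regulators lay the other way. TERT, the catalytic subunit of telomerase, gave 83 on Oct4/GFP (−) and 96 on Nestin/GFP (−), or 3.18-fold higher, and its log2 difference between the GFP (+) arrays was -0.59. SOX9, a factor of progenitor cells, gave 55 on Oct4/GFP (−) and 51 on Nestin/GFP (−), or 3.77-fold higher, and -0.75 between the GFP (+) arrays. JAG1, a Notch ligand, gave 29 on Oct4/GFP (−) and 41 on Nestin/GFP (−), or 2.27-fold higher (0.66 in log2 by that setting), and 1.06 between the GFP (+) arrays.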
